A study of Mus musculus with 12 samples.

Results

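The 9 genes described here, Adh1, Aldh1a1, Aldh1a2, Aldh1a3, Cyp26a1, Cyp26b1, Crabp1, Crabp2 and Rarb, make, break down, carry or respond to retinoic acid. They were chosen by name, and each has 1 row in the deposited array table, so that all 9 were tested, among 30701 named genes. Gonads of embryos aged 14.5 days (mouse) were profiled with Affymetrix transcriptome arrays (MTA 1.0), in 3 groups of 4 arrays, and each array read 1 gonad pair dissected free of the mesonephros. XY FOXL2+ gonads carried Rosa26-CAG-LSL-Foxl2+/f with Sf1-cre+/Tg, and XX control and XY control gonads carried Rosa26+/+ with Sf1-Cre+/Tg, on a mixed 129Sv and C57Bl/6J background. Cre driven by Sf1 (Nr5a1), a gene of the somatic cells of the fetal gonad, removes the stop cassette (LSL) before the Foxl2 coding sequence, so Foxl2 is switched on in somatic cells of the XY gonad. All 3 groups carried the Cre transgene. FOXL2 is a transcription factor of granulosa cells, the supporting cells of the ovary, and the comparisons ask what it does to the gene expression of a fetal testis.

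Retinoic acid is made from vitamin A in consecutive oxidations: alcohol and retinol dehydrogenases turn retinol into retinaldehyde, and the ALDH1A enzymes turn retinaldehyde into retinoic acid. CYP26 enzymes oxidise it further and so end its action, CRABP proteins bind it in the cytoplasm, and in the nucleus RAR and RXR receptors bind it on paired half-sites in DNA, called retinoic acid response elements. In the fetal mouse gonad Cyp26b1 keeps retinoic acid low in the testis, and germ cells of the ovary turn on Stra8 and enter meiosis. From earlier work in mice, NR5A1 and SOX9 are known to raise Cyp26b1 and FOXL2 to lower it.

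The promoters of Rarb and Cyp26a1 are shown because both hold letters of a response element, and that of Cyp26b1 because its RNA differed most among the enzymes that break retinoic acid down. Windows of 300 bases, with 250 before and 50 after an annotated transcript start, were taken from RefSeq (GRCm38.p6) and were on hand for 7 of the 9 genes, with 8 windows in all since Aldh1a1 has a pair of starts. Each is written 5′ to 3′ on the strand of the gene. Capitals mark half-sites that form a direct repeat.
Rarb, chr14:16575427-16575726, minus strand: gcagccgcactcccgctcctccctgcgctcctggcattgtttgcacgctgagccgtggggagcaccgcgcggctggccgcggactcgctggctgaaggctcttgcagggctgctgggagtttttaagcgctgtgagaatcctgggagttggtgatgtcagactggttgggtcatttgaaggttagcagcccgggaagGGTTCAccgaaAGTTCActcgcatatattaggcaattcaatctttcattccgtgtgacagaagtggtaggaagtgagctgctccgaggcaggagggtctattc
Cyp26a1, chr19:37697558-37697857, plus strand: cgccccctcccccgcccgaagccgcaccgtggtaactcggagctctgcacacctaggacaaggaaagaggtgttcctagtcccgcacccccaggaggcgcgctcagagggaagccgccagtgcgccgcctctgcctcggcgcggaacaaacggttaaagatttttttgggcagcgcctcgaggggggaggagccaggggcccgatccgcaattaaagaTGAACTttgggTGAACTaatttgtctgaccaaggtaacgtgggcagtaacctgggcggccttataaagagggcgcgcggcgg
Cyp26b1, chr6:84593761-84594060, minus strand: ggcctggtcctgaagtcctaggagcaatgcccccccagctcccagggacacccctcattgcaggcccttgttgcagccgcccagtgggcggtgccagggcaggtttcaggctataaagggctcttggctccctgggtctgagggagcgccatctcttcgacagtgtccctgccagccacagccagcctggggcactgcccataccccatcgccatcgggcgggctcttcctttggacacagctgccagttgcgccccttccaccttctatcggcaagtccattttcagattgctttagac

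The element searched for was a direct repeat with a spacer of 5 bases (DR5) between half-sites, each of which could be AGGTCA or its variants AGTTCA and GGGTCA and also GGTTCA, on both strands. In Rarb it is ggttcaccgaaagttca and lies at -53 to -37 from the transcript start. In Cyp26a1 it is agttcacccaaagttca, read on the opposite strand of the gene, at position -32 to -16. The other member windows held no DR5, and no member window held a repeat with a spacer of 2 bases (DR2) or of 1 base (DR1). Of all 32851 RefSeq windows of this length, 32 (0.0974%) held a DR5, 0.268% a DR2 and 0.222% a DR1. The windows with a DR5 belong to 31 genes, of which 14 were named on the array. Searches of the member windows for CAAGGTCA, a sequence that NR5A1 binds, for ACAATGG, bound by SOX proteins, and for GTAAACA, bound by forkhead proteins such as FOXL2, found no match in any of the 8, against 1.56%, 3.66% and 3.65% of all windows. CAAGGTCA contains the half-site AGGTCA. A match describes letters only, and its absence says nothing of binding elsewhere.

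Signals are log2 values as deposited. Their base was taken as 2 from the range of the values, since no source used here gives it. No detection calls are in the table, and 3 genes of the Y chromosome, which XX gonads lack, read 5.85 to 6.39 there, so low signals may lie at background. Foxl2 read 7.67, 8.62, 7.18 and 6.72 on XY FOXL2+ replicates 1 to 4, against 7.14 to 8.08 in XX controls and 5.07 to 5.55 in XY controls. The 4 XY FOXL2+ arrays were not alike: on the second principal component (14.1% of the variance) replicate 1 lay at -76.9 and the other 11 arrays between -22.1 and 22.6, and on the third (10.5%) replicates 3 and 4 lay at -49.7 and -44.2. Member values that moved by over 1.5 times without replicate 1 or without replicates 3 and 4 are therefore given both ways, other than those of Cyp26a1, which stayed near 0.

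In XY FOXL2+ gonads 3 of the 9 genes fell relative to XY controls, Adh1, Aldh1a1 and Cyp26b1, 1 rose, Rarb, and 5 did not pass the test. The 3 that fell belong to retinol oxidation, retinaldehyde oxidation and breakdown, and the gene that rose encodes a receptor. In bulk tissue, fewer cells of a type and less RNA per cell cannot be told apart. Among all 65956 transcript clusters, the array's units for a locus, 4.67% were called lower and 2.46% higher in the same comparison (3077 and 1621 clusters, and 2656 and 2184 after quantile normalization). Calls rest on limma with p-values adjusted by the Benjamini-Hochberg method over all clusters, at a threshold of 0.05. The median difference of the 9 genes was 0.06, and 0.0031 over all clusters.

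**Figure D1:**
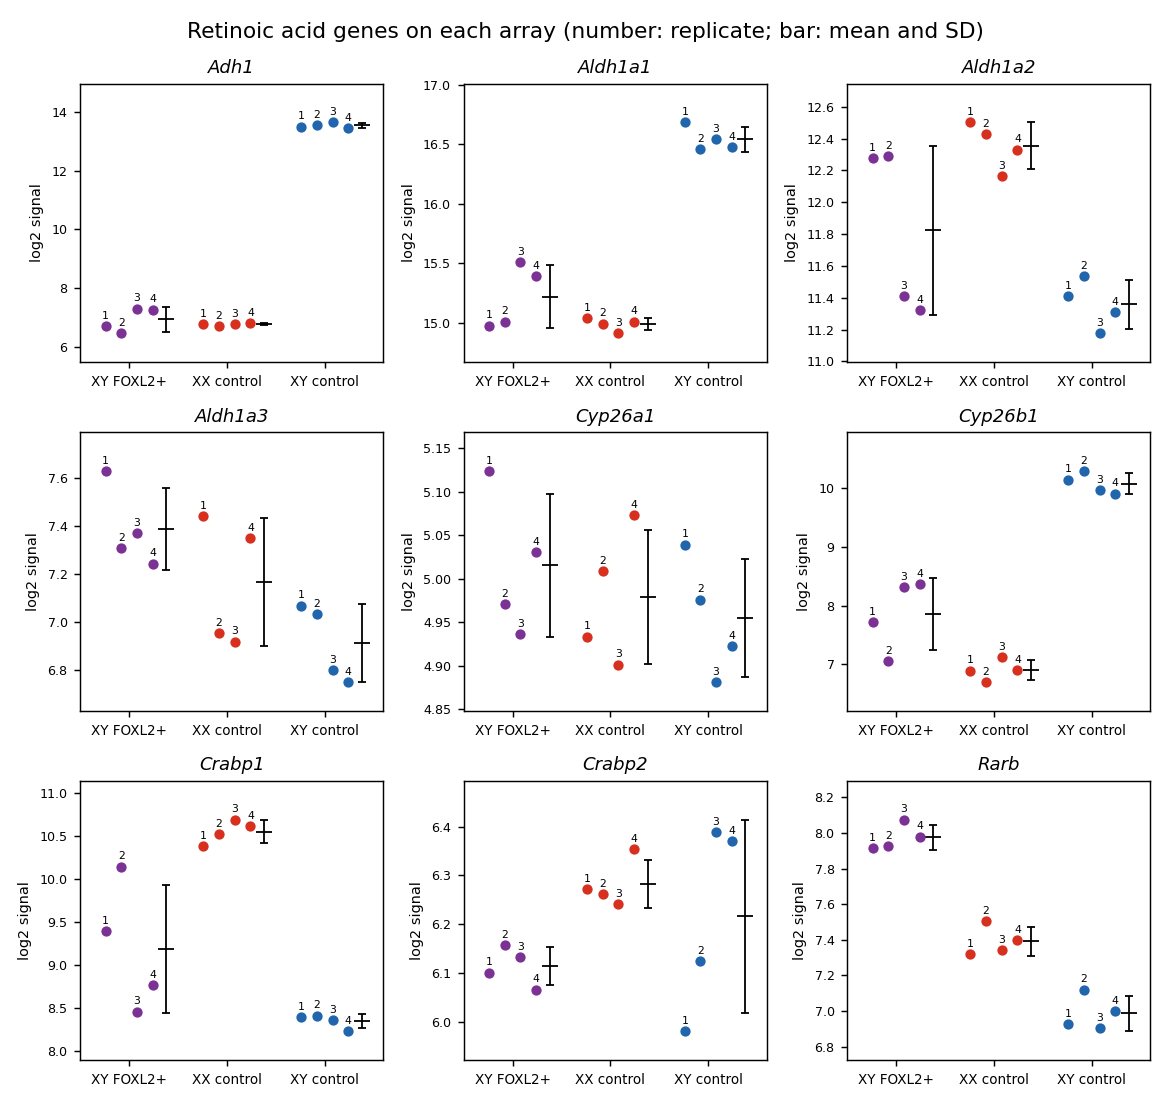
Log2 signal (y axis, a separate range in each panel) of the 9 genes on each array, with 4 arrays per group, the replicate number above each point, and the mean and SD as a black bar. Adh1, Aldh1a1 and Cyp26b1 lie lower on every XY FOXL2+ array than on every XY control array, and Rarb lies higher on every XY FOXL2+ array than on every array of both control groups.

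Adh1 encodes a class I alcohol dehydrogenase, which oxidises retinol as well as ethanol. It read 6.71, 6.48, 7.31 and 7.27 on XY FOXL2+ replicates 1 to 4, 6.77, 6.72, 6.79 and 6.80 in XX controls, and 13.49, 13.54, 13.65 and 13.45 in XY controls. All XY FOXL2+ arrays were near the ovary level, with replicates 3 and 4 above its range and replicates 1 and 2 just below it. Relative to XY controls it fell 96.3-fold (log2 difference -6.59, SE 0.16, adjusted p = 3.79e-10). The difference from XX controls was 0.17, with a 95% interval of -0.17 to 0.52 (adjusted p = 0.64), and without replicates 3 and 4 it was -0.18 (adjusted p = 0.42). These low levels lie close to where the Y-linked genes read in XX gonads.

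Aldh1a1 encodes a retinaldehyde dehydrogenase. Its signal was 14.98, 15.01, 15.51 and 15.39 in XY FOXL2+ replicates 1 to 4, 15.04, 15.00, 14.92 and 15.01 in XX controls, and 16.69, 16.46, 16.54 and 16.47 in XY controls. Replicates 1 and 2 lay within the range of the ovary, and replicates 3 and 4 above it but below every XY control. The fall against XY controls was 2.49-fold (log2 difference -1.32, SE 0.11, adjusted p = 1.33e-05), and against XX controls the difference was 0.23 with an interval of -0.01 to 0.48 (adjusted p = 0.299). With array weights, which were higher for replicates 3 and 4 than for replicates 1 and 2, the difference from XX controls was 0.34 and passed the test (adjusted p = 0.036). Without replicates 3 and 4 it was 0.0044 (adjusted p = 0.988).

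Cyp26b1, the CYP26 enzyme of the fetal testis, read 7.71, 7.06, 8.32 and 8.36 in XY FOXL2+ replicates 1 to 4. XX controls read 6.90, 6.70, 7.12 and 6.90, and XY controls 10.14, 10.29, 9.96 and 9.90. Every XY FOXL2+ array was below every XY control, and 3 of the 4 were above every XX control. Replicate 2 fell within the XX range. The fall against XY controls was 4.63-fold (log2 difference -2.21, SE 0.23, adjusted p = 8.08e-05). It was -2.16 without replicate 1 and -2.69 without replicates 3 and 4. Against XX controls Cyp26b1 was higher by 0.95 (SE 0.23, adjusted p = 0.0325), or 1.94-fold. That call was lost without replicate 3 (0.80, adjusted p = 0.093) or replicate 4 (0.79, adjusted p = 0.098), without replicates 3 and 4 (0.48, adjusted p = 0.21), without any single XX control array, and with only the groups compared in the fit (adjusted p = 0.0928).

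Rarb encodes the retinoic acid receptor beta, and retinoic acid is known to induce this gene through the DR5 shown above. It read 7.92, 7.93, 8.07 and 7.98 in XY FOXL2+ replicates 1 to 4, 7.32, 7.51, 7.34 and 7.40 in XX controls, and 6.92, 7.12, 6.90 and 7.0 in XY controls. The 3 groups did not overlap, and XY FOXL2+ stood above both controls. Its rise against XY controls was 1.98-fold (0.99, SE 0.08, adjusted p = 7.12e-06) and against XX controls 0.58 on the log2 scale (SE 0.08, adjusted p = 0.00114). The spread among XY FOXL2+ arrays was small, with an SD of 0.07 against 0.61 for Cyp26b1. Replicates 3 and 4 lay slightly above replicates 1 and 2, and without them the rise was 0.93 against XY controls and 0.53 against XX controls.

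Crabp1 encodes a cellular retinoic acid binding protein. The signal was 9.39, 10.14, 8.45 and 8.76 in XY FOXL2+ replicates 1 to 4, 10.38, 10.51, 10.68 and 10.61 in XX controls, and 8.39, 8.41, 8.35 and 8.23 in XY controls. All XY FOXL2+ arrays lay between the controls, replicate 2 closest to the ovary and replicate 3 closest to the testis. The difference from XY controls, 0.84 with an interval of 0.26 to 1.42, did not pass (adjusted p = 0.0867). It passed without replicate 3 (1.08, adjusted p = 0.0154) and without replicates 3 and 4 (1.42, adjusted p = 0.000315), and was 0.52 without replicate 2 (adjusted p = 0.123). Against XX controls Crabp1 was 2.57-fold lower (-1.36, SE 0.27, adjusted p = 0.0108), a call that ended with only the groups compared in the fit (adjusted p = 0.0527). Without replicates 3 and 4 that difference was -0.78 (adjusted p = 0.0393).

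Aldh1a2, the main retinaldehyde dehydrogenase of the early embryo and of the mesonephros, split the XY FOXL2+ group. It read 12.28 and 12.29 on replicates 1 and 2, within the XX control range of 12.16 to 12.50, and 11.41 and 11.32 on replicates 3 and 4, within the XY control range of 11.18 to 11.54. The group mean, 11.83 ± 0.53 (SD, n = 4), therefore describes none of the arrays, and neither comparison passed: the difference from XY controls was 0.47 (interval 0.02 to 0.91, adjusted p = 0.228) and from XX controls -0.53 (interval -0.98 to -0.08, adjusted p = 0.18). Without replicates 3 and 4 the difference from XY controls was 0.93 and passed (adjusted p = 0.000585), and that from XX controls was -0.07. With array weights, which were higher for replicates 3 and 4 than for replicates 1 and 2, the difference from XX controls was -0.74 and passed (adjusted p = 0.0142).

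Aldh1a3, the third retinaldehyde dehydrogenase, read 7.63, 7.31, 7.37 and 7.24 in XY FOXL2+ replicates 1 to 4, 7.44, 6.96, 6.92 and 7.35 in XX controls, and 7.07, 7.04, 6.80 and 6.75 in XY controls. The XY FOXL2+ arrays were all above the XY controls, but the difference of 0.47 (interval 0.18 to 0.77) just missed the threshold (adjusted p = 0.0538). It passed after quantile normalization (adjusted p = 0.0489) and with only clusters above the median signal tested (adjusted p = 0.0366). The difference from XX controls was 0.22 (adjusted p = 0.429), and 0.14 without replicate 1 (adjusted p = 0.643).

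The remaining members were low in all groups. Cyp26a1, a second enzyme of breakdown and a known target of retinoic acid, read 4.94 to 5.12 in XY FOXL2+, 4.90 to 5.07 in XX controls and 4.88 to 5.04 in XY controls, all below the Y-linked signals in XX gonads. Its difference from XY controls was 0.06 with an interval of -0.08 to 0.20 (adjusted p = 0.684), and its promoter holds a DR5, as that of Rarb does. Crabp2, a second binding protein, read 6.07 to 6.16 in XY FOXL2+, 6.24 to 6.35 in XX controls and 5.98 to 6.39 in XY controls. Its difference was -0.10 from XY controls (interval -0.30 to 0.09) and -0.17 from XX controls (interval -0.36 to 0.02), and neither passed (adjusted p = 0.59 and 0.347).

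**Figure D2:**
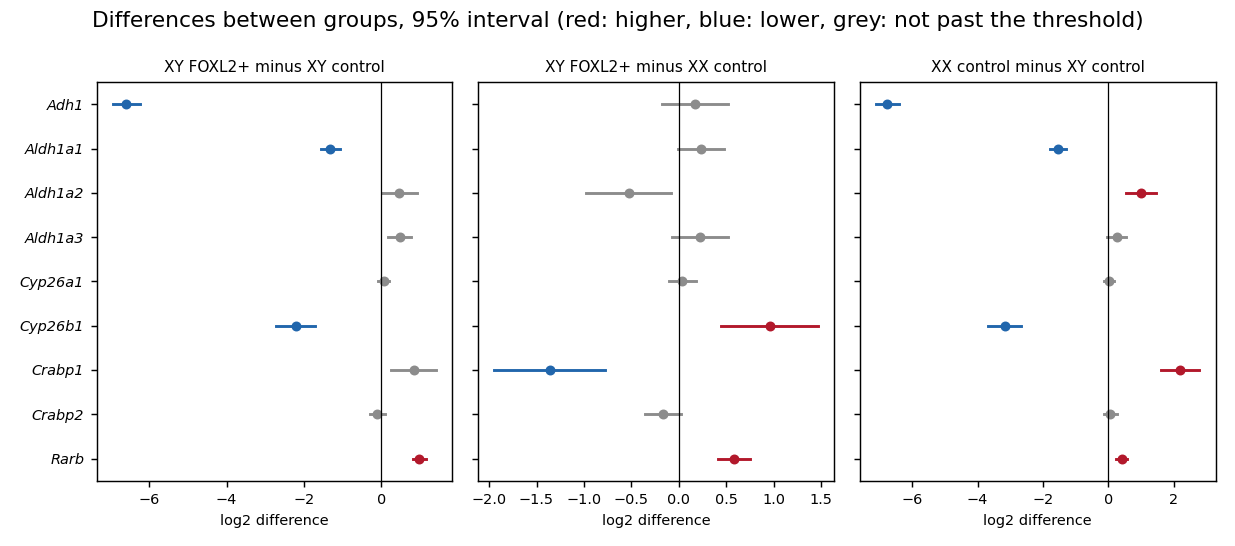
Log2 difference of each of the 9 genes in the 3 comparisons, with the 95% interval from limma as a line (x axis ranges differ between panels). Relative to XY controls, the XY FOXL2+ intervals of Adh1, Aldh1a1 and Cyp26b1 lie wholly below 0 and those of Rarb, Aldh1a2, Aldh1a3 and Crabp1 wholly above it, of which Rarb alone passed the adjusted test, and the largest difference is that of Adh1, at -6.59.

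Against the ovary 2 of the 9 genes, Cyp26b1 and Rarb, were called higher in XY FOXL2+ gonads, 1, Crabp1, lower, and 6 did not pass. Over all clusters 2.87% were called higher and 2.64% lower. The 2 genes called higher differ in where they lie. Cyp26b1 stood between the control groups, and Rarb beyond the XX group on the side away from the testis. The median difference of the 9 genes was 0.17, and 0.03 over all clusters.

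The control groups give the sex difference of the same genes at this age. In XX controls 3 of the 9 genes were lower than in XY controls, Adh1 (-6.76, adjusted p = 9.15e-11), Cyp26b1 (-3.17, adjusted p = 2.31e-06) and Aldh1a1 (-1.55, adjusted p = 2.06e-06). The same number were higher, Crabp1 (2.20, adjusted p = 9.54e-05), Aldh1a2 (1.00, adjusted p = 0.00419) and Rarb (0.40, adjusted p = 0.0027). Aldh1a3, Cyp26a1 and Crabp2 did not pass. The background in this comparison was 10.2% lower and 7.17% higher clusters (6732 and 4727, and 5385 and 6116 after quantile normalization). The fetal ovary had less RNA of Cyp26b1, and of the synthesis genes less Adh1 and Aldh1a1 but more Aldh1a2. This comparison shares the XY control arrays with that of XY FOXL2+ gonads, so the values of both are set side by side without a measure of likeness. For Adh1 they were -6.59 in XY FOXL2+ and -6.76 in XX controls, for Aldh1a1 -1.32 and -1.55, for Cyp26b1 -2.21 and -3.17, for Crabp1 0.84 and 2.20, for Aldh1a2 0.47 and 1.00, and for Rarb 0.99 and 0.40. These 6 genes are those called between the controls. Among them, Rarb alone differed further from XY controls in XY FOXL2+ gonads than in the ovary. For Rarb the difference between XY FOXL2+ gonads and XX controls passed the test as given above. Of the members not called between the controls, Aldh1a3 also differed further, at 0.47 and 0.25, and neither value passed. The values of Cyp26a1 (0.06 and 0.02) and Crabp2 (-0.10 and 0.07) were small.

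The measured markers of fetal Leydig cells, the androgen-making cells of the testis, averaged 8.66, 7.91, 11.09 and 11.17 on XY FOXL2+ replicates 1 to 4, against 7.83 to 8.07 in XX controls and 15.78 to 16.17 in XY controls, and all 4 of them were called lower in XY FOXL2+ gonads than in XY controls. Those of Sertoli cells, the supporting cells of the testis, averaged 8.36, 7.31, 9.34 and 9.16, against 6.52 to 6.65 in XX and 10.88 to 11.22 in XY controls, with 7 of 8 called lower. Those of interstitial progenitors averaged 11.35, 10.996, 11.77 and 11.80, against 10.58 to 10.93 in XX and 12.07 to 12.31 in XY controls, with 3 of 5 called lower and 1, Maf, called higher. In these 3 lists, as for Adh1, Aldh1a1 and Cyp26b1, replicates 3 and 4 were the XY FOXL2+ arrays closest to the testis. Their part in the results for these genes was not tested.

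Markers of the ovary and of neighbouring tissue differed among the XY FOXL2+ arrays as well. The 7 fetal granulosa cell markers averaged 9.40, 10.25, 8.21 and 8.11 on replicates 1 to 4, against 10.5 to 10.82 in XX controls and 7.57 to 7.61 in XY controls. Relative to XY controls 3 of the 7 were called higher, Fst, Runx1 and Foxl2, and 4 did not pass. Foxl2 is the gene switched on here, so its rise follows from the design, and the granulosa average includes it. The 5 markers of the surface epithelium averaged 8.56, 8.46, 7.76 and 7.81, against 8.59 to 8.73 in XX and 7.53 to 7.88 in XY controls. Relative to XY controls 2 of the 5, Krt19 and Upk3b, were called higher. The other 3 did not pass, and of these Lrrn4 had a negative difference (-0.37). The 6 measured mesonephric markers averaged 6.93, 6.83, 6.32 and 6.43, against 6.95 to 7.30 in XX and 6.19 to 6.45 in XY controls, and relative to XY controls 1 of the 6 rose and 2 fell. The difference of this average between replicates 1 and 2 and replicates 3 and 4 lay mostly in Calb1. Calb1 read 10.38, 9.80, 7.18 and 7.65 on XY FOXL2+ replicates 1 to 4, 9.57 to 10.26 in XX and 5.89 to 6.09 in XY controls. Against XY controls it rose by 2.77 (adjusted p = 0.00836). Pax8 read 7.52, 7.21, 7.23 and 7.17 on the same replicates, 7.71 to 8.66 in XX and 6.56 to 7.08 in XY controls. Lhx1 and Ret were those that fell, and Pax2 and Cdh16 read at most 4.96 and 5.85 on any array. Like the granulosa and surface epithelium averages and Calb1, Aldh1a2 and Crabp1 read closer to the ovary on replicates 1 and 2 than on replicates 3 and 4. The part of these cell types in the values of Aldh1a2 and Crabp1 was not tested.

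Some macrophage and endothelial markers were, like Rarb, called higher in XY FOXL2+ gonads than in the controls. So was the interstitial progenitor marker Maf, with a mean of 12.28 in XY FOXL2+ gonads, 11.67 in XX and 11.63 in XY controls. No other measured marker of its list was called higher than in XY controls. The 4 macrophage markers averaged 7.68 to 7.78 in XY FOXL2+ gonads, 7.25 to 7.52 in XX and 7.10 to 7.38 in XY controls, with 4 of 4 called higher than in XY controls and 2 of 4 than in XX controls. The 5 endothelial markers averaged 10.92 to 11.22 in XY FOXL2+ gonads, 10.62 to 10.82 in XX and 10.57 to 10.96 in XY controls, with 2 of 5 called higher against each control. Against XY controls these were Emcn (0.76) and Cldn5 (0.73), while Kdr (0.14), Pecam1 (0.06) and Cdh5 (-0.19) did not pass. Against XX controls Kdr went the other way, with a mean of 11.82 in XY FOXL2+ gonads and 12.28 in XX controls. The part of macrophages, endothelial cells and interstitial cells in the rise of Rarb was not tested.

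**Figure D3:**
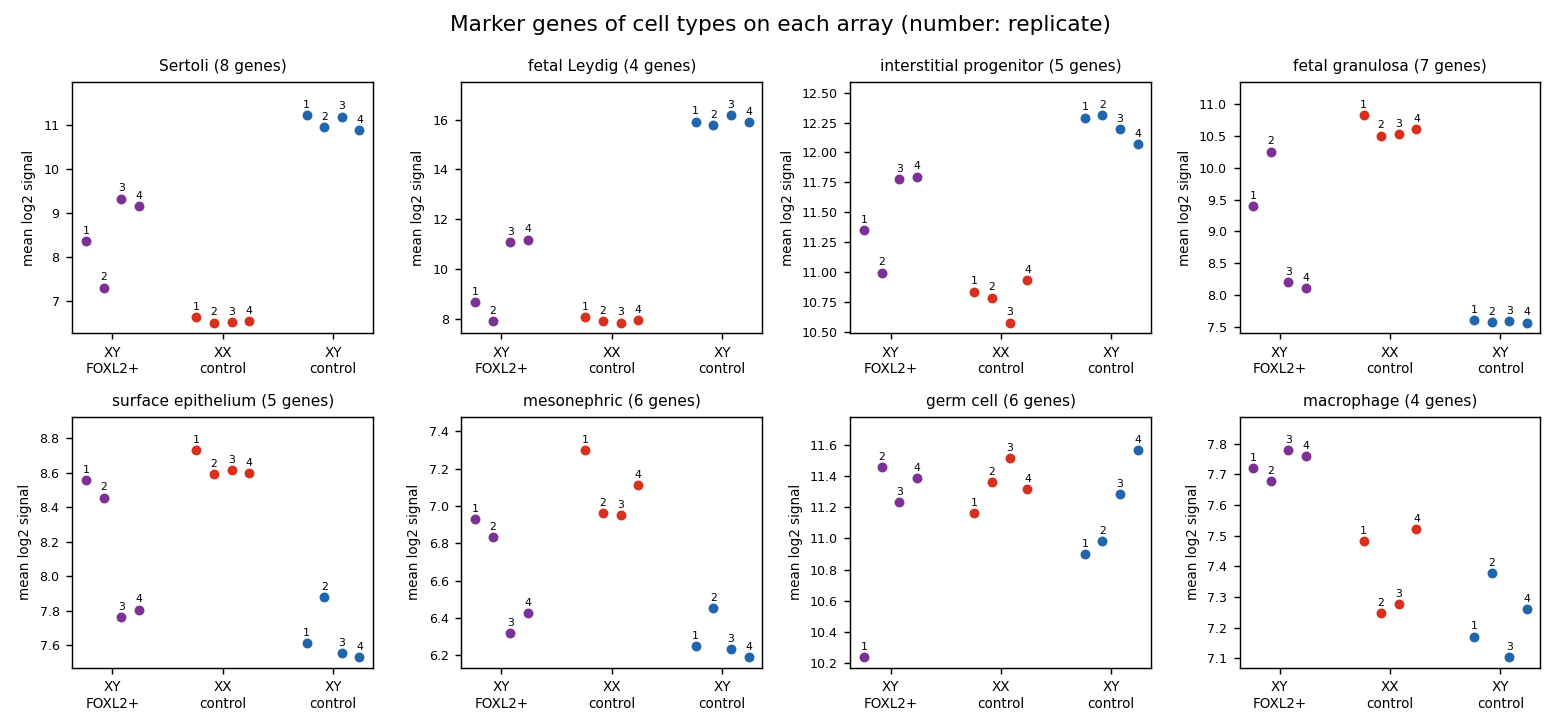
Mean log2 signal (y axis, a separate range in each panel) of the measured markers of 8 cell types on each array, with the replicate number above each point. XY FOXL2+ replicates 3 and 4 lie nearer to the XY controls than replicates 1 and 2 in the Sertoli, Leydig, interstitial progenitor, granulosa, surface epithelium and mesonephric panels, and replicate 1 is the lowest of all arrays in the germ cell panel, at 10.24. In the mesonephric panel this gap comes mostly from Calb1. The granulosa panel includes Foxl2, the gene switched on in XY FOXL2+ gonads.

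Of 38 other measured genes of the pathway 6 (15.8%) rose and 4 (10.5%) fell in XY FOXL2+ gonads relative to XY controls, beside 2.46% and 4.67% of all clusters. The lists were chosen with earlier results of these data known, and all clusters include 33206 without a gene symbol. These shares were therefore not read as an excess. Of 14 listed genes for the uptake of vitamin A and the making of retinaldehyde 13 were measured, and in XY FOXL2+ gonads 1 rose, 2 fell and 10 did not pass relative to XY controls, with a median difference of 0.02. Rdh10, the main retinol dehydrogenase of the embryo, rose by 0.36 (adjusted p = 0.0225), with 9.59 ± 0.12 in XY FOXL2+, 9.86 ± 0.08 in XX controls and 9.23 ± 0.07 in XY controls (SD, n = 4 each). It lost the call under 5 of the 20 alternatives, 4 of them leaving out 1 array. Adh5, a class III alcohol dehydrogenase that mainly clears formaldehyde, fell by 0.56 (adjusted p = 0.00555). Adh4, another alcohol dehydrogenase that oxidises retinol, was at 4.95 to 5.13 in XY FOXL2+ gonads, a fall of 0.28 (adjusted p = 0.0417) between signals all below those of the Y-linked genes in XX gonads, and it lost the call under 12 of 19 alternatives. Stra6, the cellular retinol uptake receptor (0.02, adjusted p = 0.975), Rbp4, its carrier in blood (0.16, adjusted p = 0.428), and Dhrs3, which turns retinaldehyde back to retinol (-0.17, adjusted p = 0.577), did not pass.

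Of 6 other genes of synthesis, breakdown and transport 5 were measured, and 1 fell. Aldh1a7, a close copy of Aldh1a1 in rodents, read 11.71, 11.26, 11.38 and 10.81 in XY FOXL2+ replicates 1 to 4, 12.31, 12.38, 12.27 and 12.25 in XX controls, and 13.60, 13.11, 13.49 and 13.03 in XY controls. The groups did not overlap, and XY FOXL2+ stood below both controls. It fell by 2.02 against XY controls (SE 0.17, adjusted p = 1.38e-05) and by 1.01 against XX controls (adjusted p = 0.00473). These data do not show whether the Aldh1a7 enzyme acts on retinaldehyde. Probes of Aldh1a1 and Aldh1a7 may take up each other's RNA, which was not tested. The difference of Aldh1a1 from XX controls, 0.23, did not pass. Cyp26c1, the third enzyme of its family, read 4.42 to 4.56 in XY FOXL2+ gonads and did not pass (-0.00083, adjusted p = 0.997). Fabp5, a fatty acid binding protein that also binds retinoic acid, did not pass against XY controls (-0.46, adjusted p = 0.313) and was lower in XX than in XY controls (-1.25, adjusted p = 0.0024).

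Most receptors other than Rarb did not pass the test. Of 13 listed receptors and coregulators 11 were measured, of which 3 rose, 1 fell and 7 did not pass in XY FOXL2+ gonads relative to XY controls. Rara, the receptor alpha, did not pass although its arrays did not overlap (-0.24, adjusted p = 0.0699), nor did Rarg (-0.09, adjusted p = 0.581), Rxra (-0.06, adjusted p = 0.71), Rxrb (-0.01, adjusted p = 0.963) or Rxrg (-0.02, adjusted p = 0.905). Nrip1, a corepressor of nuclear receptors and a known target of retinoic acid, rose by 0.46 (adjusted p = 0.0054), to 10.20 ± 0.08 in XY FOXL2+ gonads, against 10.42 ± 0.10 in XX controls and 9.74 ± 0.08 in XY controls. Ncoa3, a coactivator, rose by 0.71 (adjusted p = 0.0134), and lost the call with only the groups compared (adjusted p = 0.0601).

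The orphan receptors Nr2f1 and Nr2f2, which can bind the same half-sites, went opposite ways. Nr2f1 was higher in XY FOXL2+ gonads than in XY controls (0.47, adjusted p = 0.0272) and than in XX controls (0.58, adjusted p = 0.0123), so that like Rarb it lay above both. Both calls were lost without XY FOXL2+ replicates 3 and 4, with adjusted p of 0.139 and 0.117, and 7 of the 20 alternatives in all ended the first. Nr2f2, a marker of interstitial cells, was lower than in XY controls (-0.61, adjusted p = 0.0484) and higher than in XX controls (1.07, adjusted p = 0.00302). The fall against XY controls lost its call under 14 of the 20 alternatives, and without XY FOXL2+ replicates 3 and 4 it was -0.94 (adjusted p = 0.000664).

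**Figure D4:**
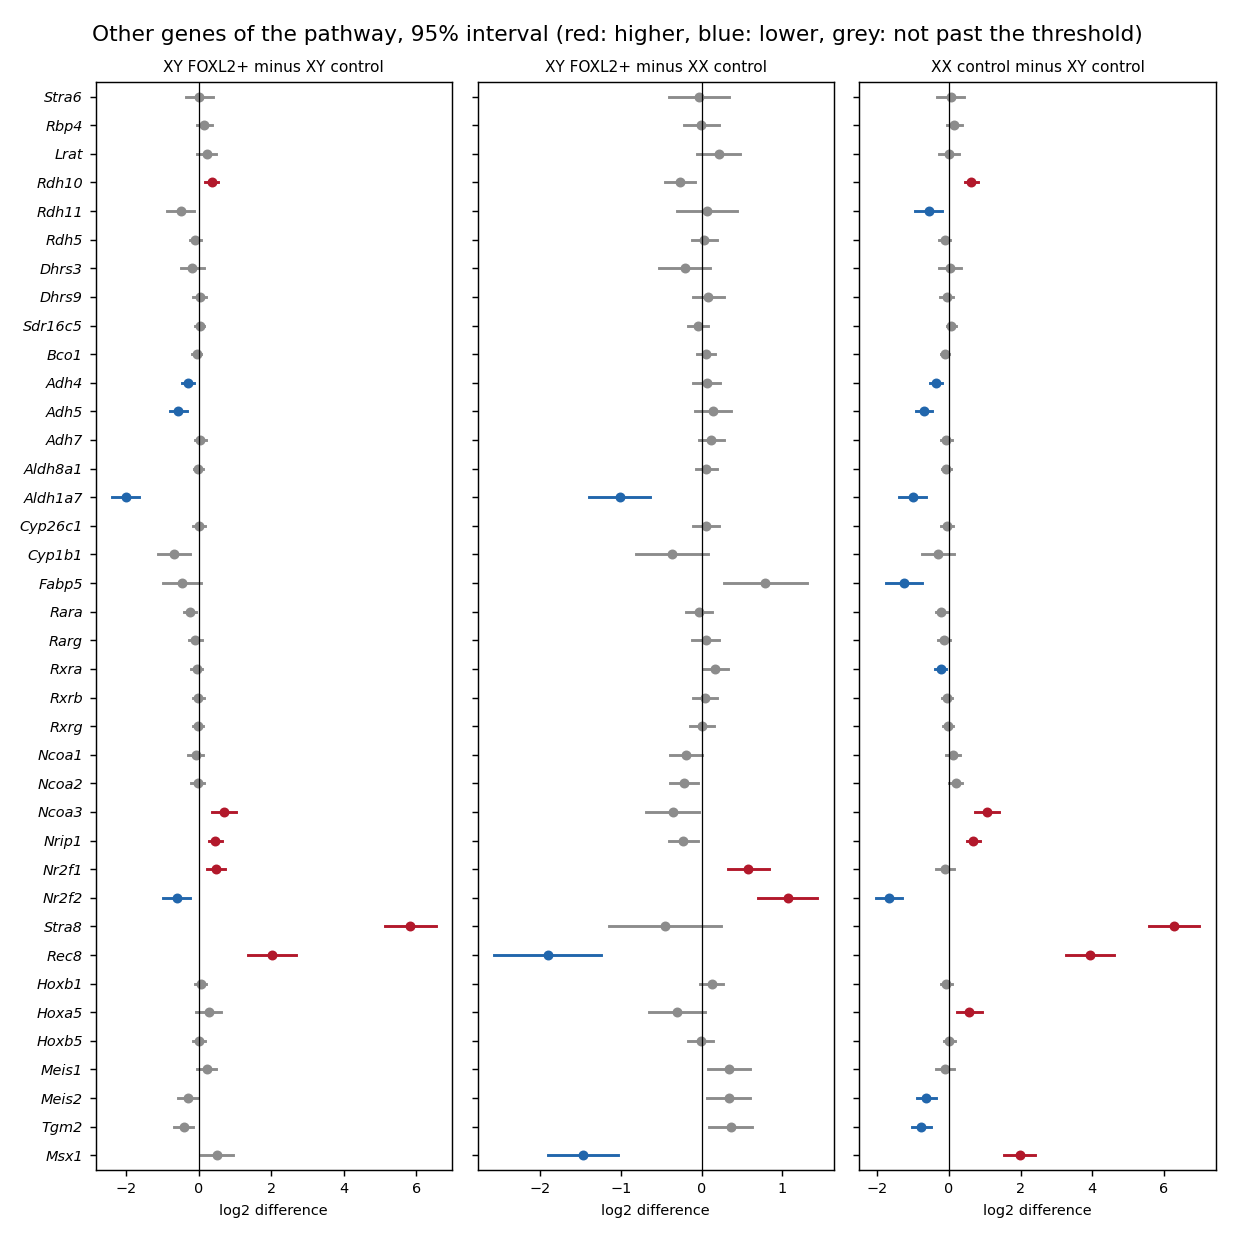
Log2 difference of the other measured genes of the pathway in the 3 comparisons, with the 95% interval from limma as a line (x axis ranges differ between panels). Relative to XY controls, Stra8 (5.83) and Rec8 (2.02) have the largest positive differences in XY FOXL2+ gonads and Aldh1a7 (-2.02) the largest negative one.

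Of 12 listed genes known to respond to retinoic acid 11 were measured, and in XY FOXL2+ gonads 2 rose relative to XY controls, both of them genes of meiotic germ cells. The known targets described above are not in this list, and of them Rarb and Nrip1 rose and Cyp26a1 did not pass. Stra8 read 11.27, 13.34, 12.06 and 11.91 on XY FOXL2+ replicates 1 to 4, 12.18 to 12.84 in XX controls and 6.23 to 6.4 in XY controls. The XY control signals are at about the level of the Y-linked genes in XX gonads, so the difference of 5.83 (SE 0.32, adjusted p = 3.43e-07) is measured against a level that may be background. Its difference from XX controls was -0.45 (interval -1.15 to 0.25, adjusted p = 0.51). The 6 germ cell markers averaged 10.24, 11.46, 11.23 and 11.39 on the same arrays, against 11.16 to 11.51 in XX and 10.90 to 11.57 in XY controls. That average covers opposite changes against XY controls. Tex101 rose (1.47, adjusted p = 0.0336), Dnd1 fell (-0.89, adjusted p = 0.00388) and 4 did not pass. The part of germ cells in the result for Stra8 was not tested. Rec8, a subunit of the meiotic cohesin, read 9.27, 10.17, 8.60 and 8.17 in XY FOXL2+, against 10.86 to 11.02 in XX controls and 6.96 to 7.12 in XY controls. It rose by 2.02 (SE 0.31, adjusted p = 0.00147) and was lower than in the ovary (-1.91, SE 0.31, adjusted p = 0.00337), a difference that was -1.24 without replicates 3 and 4. Every XY FOXL2+ array of Rec8 lay between the control groups, replicate 2 closest to the ovary and replicate 4 closest to the testis.

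The other 9 measured genes of this list did not pass the test, among them Stra6 and Dhrs3, which the list for uptake and retinaldehyde also holds. Hoxa5, Hoxb1 and Hoxb5, homeobox genes of the body axis, had differences of 0.27, 0.06 and 0.01 between XY FOXL2+ and XY controls, with adjusted p of 0.383, 0.717 and 0.971. Tgm2, a transglutaminase (-0.42, adjusted p = 0.0609), and the homeobox genes Meis1 (0.22, adjusted p = 0.33), Meis2 (-0.29, adjusted p = 0.193) and Msx1 (0.50, adjusted p = 0.179) did not pass. Msx1, which is higher in the ovary (1.97, adjusted p = 2.54e-05), was lower in XY FOXL2+ gonads than there (-1.47, adjusted p = 0.00124). Hoxa5 was also higher in XX than in XY controls (0.57, adjusted p = 0.0237). Tgm2 (-0.77, adjusted p = 0.00063) and Meis2 (-0.63, adjusted p = 0.00268) were lower there. Both read lower on every XY FOXL2+ array than on every XY control array. Of the 14 measured genes with a DR5 window 1 rose, Rarb, and 1 fell, Prokr2, a prokineticin receptor, with a difference of -2.65 (adjusted p = 5.5e-05), while 12 did not pass. Over all clusters 2.46% were called higher and 4.67% lower. With 1 gene called each way, and Rarb already a member, these counts were not read as a result about response elements. Prokr2 was named after its value was seen.

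The genes of most similar pattern were sought for the 4 members called against XY controls, by the root mean square difference over the 12 arrays after each gene was centred on its own mean, among 20404 named clusters. Adh1 was closest to Star, which carries cholesterol into mitochondria (0.24), to Amh, the hormone of Sertoli cells (0.73), and to Defb19, a beta-defensin (1.06). The closest to Aldh1a1 were Fndc4 (0.12), Camkk2 (0.13) and Cacna2d1 (0.13). Cyp26b1 was closest to Smoc2, a secreted matrix protein (0.18), Slc6a15, an amino acid transporter (0.23), and Dtna (0.24). For Rarb these were Gbp9, a guanylate binding protein (0.10), Foxp1, a forkhead transcription factor (0.12), and Cadps2 (0.14). The measure favours genes whose range is like that of the member, and all 12 arrays share the group differences.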

How the data were processed

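The deposited table holds log2 signals of 72688 entries on 12 arrays. RNA was amplified and labelled with the WT Plus kit, per the labels' protocols. No source used here gives the authors' background correction, probe summary and normalization, or a slide or scan batch. After removal of 6732 control probe sets, all 65956 remaining transcript clusters entered the tests, dim ones included. Gene names are those of the platform table, brought up to date with RefSeq: 31258 clusters have 1 symbol, 1492 several and 33206 none. A gene with several clusters was read from the one with the highest mean, and each of the 9 members has 1 cluster. Genome-wide fits used limma 3.58.1 in R 4.3.3 (lmFit, eBayes with an intensity trend) over all 12 arrays leaving 9 residual degrees of freedom, with two-sided p-values and Benjamini-Hochberg adjustment over all clusters. The fit was tested on simulated data. The number of arrays limits the precision. Promoters were searched with Python 3.11.15.

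The members and gene lists were chosen with earlier results of these data known, so no list is independent support. The genes named are the members, the pathway genes that passed or mark a step that did not, and the 3 closest genes for each called member. Some listed genes are not reported here. The alternatives tried were quantile normalization, median centring, array weights, no trend, clusters above the median signal, only the groups compared, the replicate number as a block, and each array left out. Leaving out XY FOXL2+ replicates 3 and 4 together was added after seeing the data. Replicate numbers were not treated as pairs, since they mark no shared litter or day in the labels.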

Additional observations from a re-analysis of the deposited data

Results flagged for a closer look

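Of 78 groups of 4 arrays tested over the members and the called pathway genes, 2 had an array far from the rest, fewer than the 1 in 20 that chance gives, and none of them belonged to a member. Nrip1 read 10.57 on XX control replicate 1, with the next array at 10.38. Rxra read 9.20 on XY FOXL2+ replicate 2, with the next array at 9.31.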

How the results depend on the processing

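Of the 534 recomputed member values 7 changed sign, those of Cyp26a1 and Crabp2 in XX against XY controls and of Cyp26a1 and Adh1 in XY FOXL2+ against XX controls, and none of these was called under either setting. Of 260 recomputed values of the 13 member calls, 251 kept the call and 9 lost it, namely Cyp26b1 (8) and Crabp1 (1) in XY FOXL2+ against XX controls. Over all of its alternatives, Cyp26b1 in that comparison had adjusted p from 0.000624 to 0.21. For 31 pathway calls, 553 of 618 recomputed values kept the call and 65 lost it, with no change of sign. Apart from the settings that use fewer arrays or clusters, the cause of these changes was not tested.

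In XY FOXL2+ gonads against XY controls, 1 member was called higher, and 2 were after quantile normalization, with clusters above the median signal and with the replicate block. Aldh1a3 was the added one (adjusted p = 0.0359 with the block). Without XY FOXL2+ replicates 3 and 4 together, an alternative chosen after seeing the data, 3 members and 3055 clusters were higher and 5263 clusters lower, against 1621 and 3077 with all arrays. With only the groups compared, and so fewer arrays, 809 were higher and 1891 lower. Quantile normalization gave 2184 higher and 2656 lower, and in XX against XY controls 6116 higher and 5385 lower. Leaving out 1 array gave 1 to 2 members and 998 to 1938 clusters higher, the lowest counts being 998 without XY control replicate 3 and 1051 without replicate 4.

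In XY FOXL2+ gonads against XX controls, array weights gave 2 members lower, with 3668 clusters higher and 3084 lower, against 1891 and 1744 with equal weights. The weights of XY FOXL2+ replicates 1 to 4 were 0.30, 0.51, 1.12 and 1.18. With only the groups compared, limma called 1 member higher and 0 lower (3 at an unadjusted p under 0.05: Aldh1a2, Crabp1 and Crabp2), with 944 clusters higher and 972 lower. Without replicates 3 and 4, 1 member was higher, with 1013 clusters higher and 842 lower. Leaving out 1 array gave 1 to 2 members higher, 980 to 2967 clusters higher and 1032 to 3025 lower. The highest counts came without XY FOXL2+ replicate 2. The others that moved by over 1.5 times were 1123 and 1132 without XY FOXL2+ replicate 3, 980 and 1032 without replicate 4, 1008 and 1033 without XX control replicate 2, 981 and 1087 without XX control replicate 3, and 1142 and 1073 without XX control replicate 4.

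Deviations of same-numbered arrays from their group means correlated at -0.09 to 0.18, with 2 of 12 pairs over 0.1. Arrays of different number were not compared, so these values have no reference and cannot decide on pairing. The numbers were not read as pairs because the labels give no shared litter or day. Each member has 1 cluster, so the planned reading of other clusters gave no value.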
